A study of Sus scrofa with 12 samples.

Results

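The 10 genes described here encode fibroblast growth factors (FGF2, FGF8 and FGF19), their 4 receptor tyrosine kinases (FGFR1, FGFR2, FGFR3 and FGFR4) and 3 inhibitors that dampen signalling below the receptors (SPRY2, SPRY4 and DUSP6). They were picked by name as 1 pathway, but with earlier results of these data known. All 10 were found by their Ensembl pig gene symbols among the 19681 genes in each deposited table. Secreted FGFs bind their receptors together with heparan sulphate, and the active receptor recruits the adaptor FRS2 and switches on the RAS, RAF, MEK and ERK kinase cascade. ERK in turn induces transcription of the Sprouty genes and of DUSP6, whose products act back on the cascade, so the RNA of these inhibitors is widely used as a readout of ERK activity. In vessels FGF2 is known as an endothelial growth factor, and in embryos FGF signalling takes part in mesoderm formation.

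RNA was measured in 12 libraries, 3 biological replicates (A, B and C) in each of 4 groups. IEC2, IEC4 and IEC12 were porcine induced pluripotent stem (iPS) cells taken on day 2, day 4 and day 12 of induction towards endothelium, and AOC was a porcine endothelial cell line that had not been through the induction. All IEC cells had first received the GSK3 inhibitor CHIR99021 in a medium without FGF2 and LIF, which ended at the IEC2 stage. IEC4 cells had in addition received BMP4, FGF2 and VEGF for the next 2 days, and IEC12 cells had then been kept in the endothelial medium EGM-2 with added VEGF. FGF2 protein was thus left out of the medium from the start of induction up to IEC2 and added between IEC2 and IEC4. The study's methods do not list the components of EGM-2, so the exposure to FGF2 between IEC4 and IEC12 is not known here. Nor do they give the culture medium of AOC, so in comparisons with AOC medium and cell identity cannot be told apart. By the study's account the day 12 culture was unsorted, and by flow cytometry CD31-positive cells were a minority of it. AOC is a single cell line, so its 3 libraries do not sample different animals. In such bulk libraries, fewer cells of a type and less RNA per cell cannot be told apart.

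The deposited values are FPKM (fragments scaled to transcript length and to the fragments mapped in the library). Other biases that differ between genes are not removed by this scaling, so comparisons between genes are approximate. The number of reads is not in the files, so no counting error or detection floor can be given, and a gene is called "listed at 0" where its value is exactly 0. From the spacing of the lowest values, the depth of the libraries relative to AOC A was estimated at 0.746 in IEC12 A and above that of AOC A, up to 1.37, in the other 10. IEC12 A also had the highest share of FPKM in 12 mitochondrial genes, 15.0% against 9.78% and 7.77% in IEC12 B and C and at most 7.10% elsewhere. The endothelial label was checked on 11 marker genes found: their summed FPKM was 270 to 389 in AOC but at IEC2 3.44 to 6.14, at IEC4 1.91 to 3.34 and at IEC12 0.580 to 0.639, where all 11 were under 1 in every library. CDH5, which encodes VE-cadherin, was listed at 0 in all 9 IEC libraries, and PECAM1 (CD31) was at most 0.105 in IEC12 against 91.7 to 131 in AOC. IEC is therefore used below only as the name of a stage. Summed epithelial markers (7 genes found) reached 524 to 1448 at IEC4, with the highest value in IEC4 C, beside 118 to 152 at IEC2, 42.3 to 87.1 at IEC12 and 2.21 to 4.05 in AOC. Most of the IEC4 sum was KRT8 and CLDN6, with 748 and 612 FPKM in IEC4 C. ESRP1 overlapped between IEC2 and IEC4, and the other epithelial genes were higher at IEC4 than at IEC2. Summed neural markers (7 found) went from 9.47 to 16.7 at IEC4 up to 371 to 397 at IEC12, almost all of it STMN2, the other 6 being under 1 in every IEC12 library.

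Of the 10 genes, 7 reached 1 FPKM in at least 3 libraries and were tested with limma on log2(FPKM + 1), and FGF8, FGF19 and FGFR4 were not. FGFR1 reached 1 FPKM in exactly 3 libraries and FGFR3 in IEC4 and IEC12 only, so passing this filter is itself no evidence on a gene. A gene is called higher or lower where the Benjamini-Hochberg adjusted p over all genes tested was under 0.05. All differences below are on the log2(FPKM + 1) scale, which understates changes of genes near or under 1 FPKM, and errors are standard errors of the fit. A difference between IEC12 and IEC2 contains both single steps and shares its libraries with them, as the 3 comparisons with AOC share the AOC libraries.

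From IEC2 to IEC4, SPRY2 fell and FGFR3 rose, while SPRY4 and DUSP6 were not called. From IEC4 to IEC12, SPRY4 and DUSP6 fell by about the same amount on the log2 scale, and SPRY2 and FGF2 fell as well, and across the same step the summed epithelial markers were lower and the neural marker STMN2 higher in FPKM. Their part in the result was not tested. Against the IEC stages, AOC had FGFR2 at or near 0 and the lowest SPRY4, and no member was called higher in AOC.

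**Figure D1:**
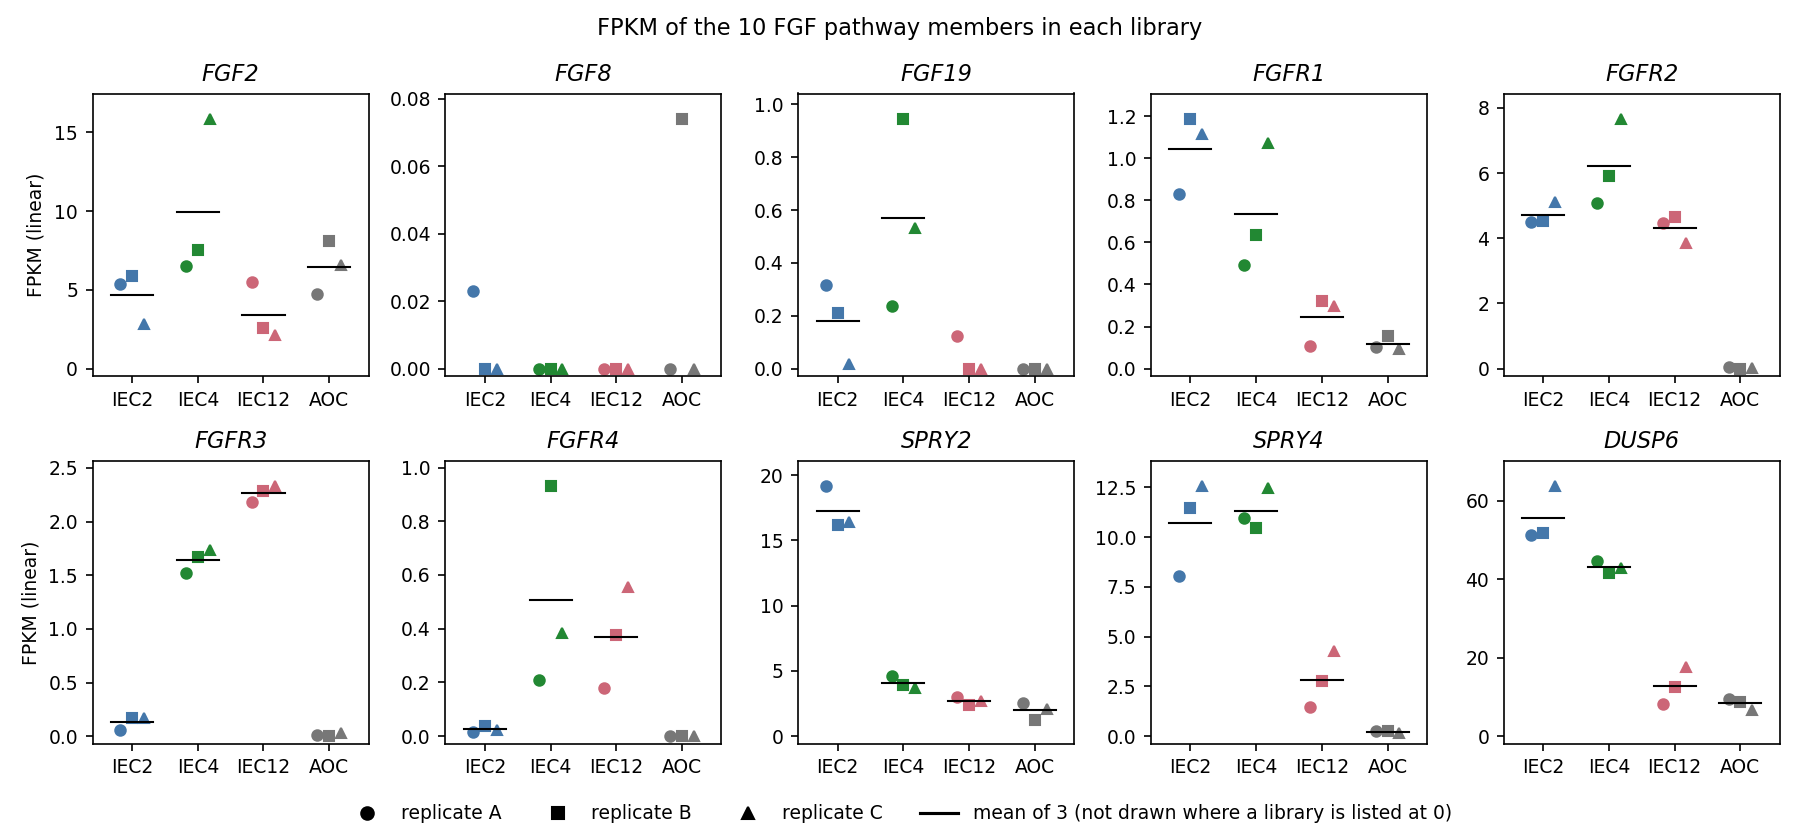
FPKM (linear axis from 0, a scale of its own for each gene) of the 10 genes in each library of IEC2, IEC4, IEC12 and AOC; circles, squares and triangles are replicates A, B and C and black lines are means of 3 libraries. SPRY2 drops between IEC2 and IEC4, SPRY4 and DUSP6 drop between IEC4 and IEC12, FGFR3 is higher at IEC4 and again at IEC12, and FGFR2 is at 0.0421 or less in AOC.

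FGF2, the ligand that was also a component of the induction medium, had its own transcript in every library. The gene lies on chromosome 8 (chr8:101278877-101344084, Sscrofa11.1, which is UCSC susScr11; coordinates of this and the other genes are from RefSeq, matched by symbol). Its FPKM was 5.39, 5.91 and 2.81 in IEC2 A, B and C, and 6.50, 7.53 and 15.9 in the same order in IEC4. It was 5.53, 2.55 and 2.15 in IEC12, and 4.76, 8.10 and 6.56 in AOC. The 3 IEC4 libraries were above all IEC2 and all IEC12 libraries, IEC4 C standing well above the other two, while AOC overlapped with every stage. Between IEC4 and IEC12 FGF2 fell by 1.30 ± 0.38 (adjusted p = 0.0218). This call rested on single libraries: the difference was -0.94 without IEC4 C (adjusted p = 0.0729), -1.18 without IEC12 B (0.0722) and -1.09 without IEC12 C (0.0578), and the adjusted p over all alternatives ran from 0.00836 to 0.0729. IEC4 C, which set the high end, was also the library with the highest summed epithelial markers, mostly KRT8 and CLDN6. Whether this has a part in the FGF2 value was not tested. IEC4 against IEC2 was 0.89 ± 0.38 (adjusted p = 0.0953), and IEC12 against IEC2 was -0.40 ± 0.38 (0.425). Ordered by mean, IEC4 (9.97) came before AOC (6.47), IEC2 (4.70) and IEC12 (3.41), and no neighbours in this order were called different.

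FGF8, a ligand of gastrulating mesoderm, was listed at 0 in 10 of 12 libraries and had 0.0230 FPKM in IEC2 A and 0.0741 in AOC B. FGF19, which encodes a hormone-like FGF that acts mainly through FGFR4, was under 1 FPKM everywhere. It had 0.315, 0.210 and 0.0194 in IEC2, 0.236, 0.947 and 0.531 in IEC4 and 0.124 in IEC12 A, and was listed at 0 in IEC12 B, IEC12 C and the 3 AOC libraries. The IEC2 and IEC4 values of FGF19 overlapped, and those of IEC4 lay above all values of IEC12. FGF8 is at chr14:112808215-112814225 and FGF19 at chr2:3583027-3586985.

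The other secreted FGFs were a list of 15, of which 10 were found and 1, FGF21, was tested. FGF21 encodes a metabolic hormone, and its FPKM ranged from 3.31 to 8.73 at IEC2, from 5.57 to 9.01 at IEC4 and from 0.217 to 0.641 at IEC12, and in AOC it was 0.653 in A, listed at 0 in B and 0.181 in C. It fell by 2.53 between IEC4 and IEC12 (adjusted p = 0.000226). FGF4 and FGF17 are named after their values were seen and were not tested. FGF17, a relative of FGF8, was present in IEC4 alone, with 2.81, 2.48 and 0.877, and listed at 0 in the other 9 libraries. FGF4, known from pluripotent and early embryonic cells, was present in IEC12 alone, with 0.793, 0.420 and 1.06, and likewise listed at 0 in the other 9.

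Among the receptors, FGFR2 (chr14:131183095-131285001) was the most abundant in every IEC library and was not called in any stage comparison. FGFR2 FPKM was 4.51, 4.53 and 5.12 in IEC2, 5.07, 5.91 and 7.67 in IEC4, and 4.47, 4.65 and 3.86 in IEC12. In AOC it was 0.0421 in A, listed at 0 in B and 0.00817 in C. All 9 IEC libraries were thus above the 3 AOC libraries by a wide gap, whereas the IEC2 values overlapped with those of both later stages. The stage differences of FGFR2 were 0.32 ± 0.18 for IEC4 against IEC2, -0.43 ± 0.18 for IEC12 against IEC4 and -0.10 ± 0.18 for IEC12 against IEC2, with limma adjusted p of 0.186, 0.0790 and 0.669. The 95% interval of the last, from -0.50 to 0.30, bounds how far day 12 can lie from day 2. Against IEC12, the AOC difference was -2.39 ± 0.16 (95% interval -2.73 to -2.04, adjusted p = 1.36e-07), and the differences from IEC4 and IEC2 were -2.81 and -2.49.

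FGFR3 (chr8:879151-894968) rose with induction. Its FPKM was 0.0567, 0.166 and 0.169 in IEC2, 1.52, 1.67 and 1.73 in IEC4, and 2.19, 2.29 and 2.33 in IEC12. AOC had 0.00694 in A and 0.0337 in C and was listed at 0 in B. None of the 4 groups overlapped. FGFR3 passed the filter through IEC4 and IEC12 alone, so its calls below, which are in the counts, add nothing to these values. The rise from IEC2 to IEC4 was 1.22 ± 0.15 (adjusted p = 0.00023), and IEC12 was 1.53 ± 0.15 above IEC2 (4.59e-05), which in mean FPKM were 12.6-fold and 17.4-fold. The step from IEC4 to IEC12, 0.31 ± 0.15, was not called (adjusted p = 0.117). AOC was lower than IEC12, with a difference of -1.69 ± 0.11 (adjusted p = 1.61e-07) and differed from IEC2 by -0.16 ± 0.11 (0.247).

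FGFR1, a receptor widely used in mesoderm and endothelium, was the other way round. Its gene is at chr15:48053895-48106634. FPKM was 0.831, 1.19 and 1.12 in IEC2, 0.491, 0.633 and 1.07 in IEC4, 0.110, 0.323 and 0.298 in IEC12, and 0.101, 0.154 and 0.0917 in AOC. IEC2 and IEC4 overlapped, both lay above all IEC12 libraries, and IEC12 overlapped with AOC through IEC12 A. FGFR1 passed the filter through IEC2 B, IEC2 C and IEC4 C alone, so its calls below likewise add nothing to these values. FGFR1 was lower in IEC12 than in IEC2, with a difference of -0.72 ± 0.18 (95% interval -1.12 to -0.31, adjusted p = 0.0101), which was 4.29-fold in mean FPKM, and without IEC12 A the difference was -0.64 (adjusted p = 0.0374). The single steps were -0.25 ± 0.18 (adjusted p = 0.303) and -0.47 ± 0.18 (0.0585). AOC was lower than IEC4, with a difference of -0.62 ± 0.15 (adjusted p = 0.00282) and lower than IEC2, with a difference of -0.87 ± 0.15 (0.000277), and differed from IEC12 by -0.15 ± 0.15 (0.402).

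FGFR4, at chr2:80841536-80853791, stayed under 1 FPKM throughout and was not tested. It had 0.0173, 0.0392 and 0.0239 in IEC2, 0.207, 0.931 and 0.385 in IEC4, and 0.178, 0.375 and 0.555 in IEC12, and was listed at 0 in AOC. All IEC4 and IEC12 values lay above those of IEC2 and overlapped with each other.

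Because FPKM is per length, the 4 receptors could be set side by side within a library, as an approximate comparison. Among the IEC stages, the sum over the receptors was 5.92 ± 0.507 FPKM at IEC2 (mean ± SD of 3 libraries, as for the shares below), against 9.10 ± 1.79 at IEC4 and 7.21 ± 0.370 at IEC12. Of this sum FGFR1 made up 17.6% ± 2.36 at IEC2, then 7.85% ± 1.76 at IEC4 and 3.35% ± 1.53 at IEC12, and the 3 groups did not overlap. FGFR2 remained the main receptor at 79.8% ± 3.41, 68.3% ± 3.20 and 60.0% ± 4.83 in the same order. FGFR3 took 2.16% ± 0.968, 18.4% ± 2.46 and 31.5% ± 1.56, and FGFR4 0.451% ± 0.185, 5.52% ± 4.05 and 5.12% ± 2.66. These shares are a description without a test, and since they add up to the whole, a larger share of 1 receptor lowers the others. In AOC the 4 receptors summed to 0.134 to 0.154 FPKM, most of it FGFR1, too little for shares to be read.

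**Figure D2:**
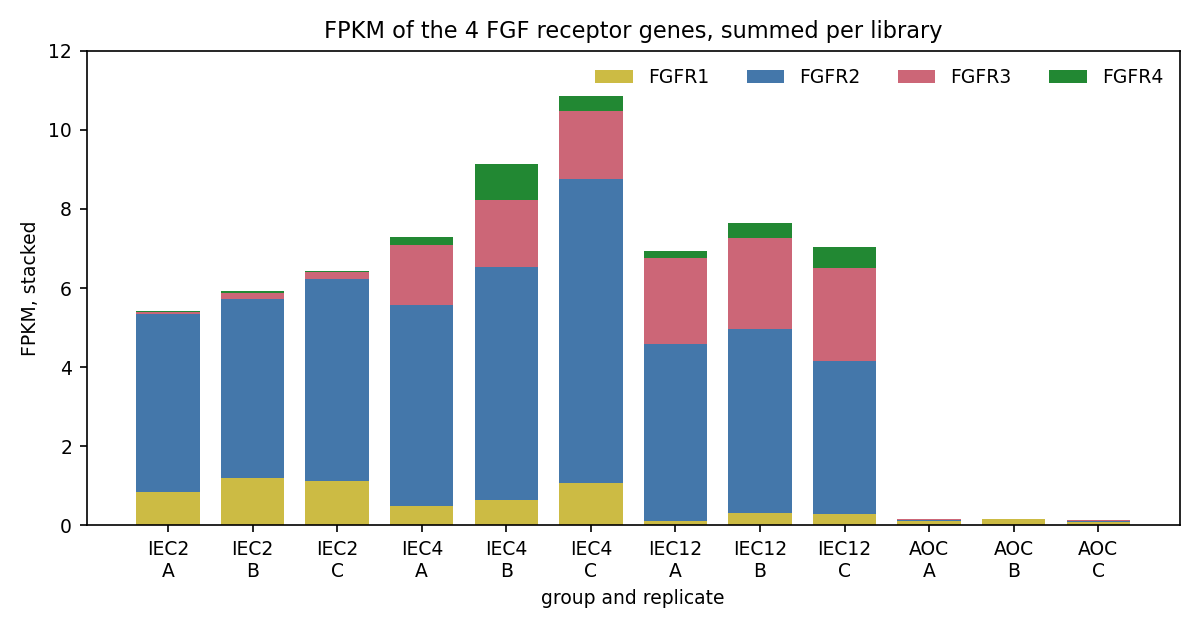
Stacked FPKM (linear axis from 0) of FGFR1, FGFR2, FGFR3 and FGFR4 in each of the 12 libraries, ordered by group and replicate. FGFR2 is the largest segment in all 9 IEC libraries, the FGFR3 segment is wide from IEC4 on, the FGFR1 segment is narrow in IEC12, and the AOC bars reach at most 0.154 FPKM.

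All 3 feedback inhibitors were called lower between IEC4 and IEC12, and SPRY2 was also called lower between IEC2 and IEC4. SPRY2 (chr11:52153695-52158766), a Sprouty protein that restrains receptor signalling towards ERK, had an FPKM of 19.2, 16.2 and 16.4 in IEC2 and 4.61, 3.93 and 3.70 in IEC4. It had 2.99, 2.35 and 2.72 in IEC12 and 2.54, 1.27 and 2.12 in AOC. The 3 stages did not overlap, each below the one before, and AOC overlapped with IEC12. SPRY2 fell by 1.84 ± 0.16 between IEC2 and IEC4 (adjusted p = 3.52e-05), a 4.23-fold drop in mean FPKM, and IEC12 was lower than IEC2, with a difference of -2.31 ± 0.16 (7.14e-06), so that 80.0% of the log2 change between day 2 and day 12 fell in the first step. The second step of -0.46 ± 0.16 was called (adjusted p = 0.0416) but was lost in 8 of 16 alternatives. Its adjusted p was 0.0593 and 0.0577 without IEC2 B and C, 0.124 and 0.0874 without IEC4 A and B, and 0.146 and 0.0724 without IEC12 B and C. AOC was lower than IEC2, with a difference of -2.64 ± 0.18 (adjusted p = 1.41e-07), was lower than IEC4, with a difference of -0.79 ± 0.18 (0.00204), and differed from IEC12 by -0.33 ± 0.18 (0.135).

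SPRY4, the second Sprouty gene, at chr2:143877334-143891280, did not follow SPRY2 in the first step. Its FPKM was 8.05, 11.5 and 12.6 in IEC2 and 10.96, 10.5 and 12.4 in IEC4. It was 1.48, 2.77 and 4.28 in IEC12 and 0.266, 0.260 and 0.144 in AOC. IEC2 and IEC4 overlapped fully, all 3 IEC12 libraries lay below them, and AOC lay below IEC12. IEC4 against IEC2 was 0.09 ± 0.27 with an interval from -0.52 to 0.70, which excludes a drop of the size seen in SPRY2. SPRY4 fell by 1.74 ± 0.27 between IEC4 and IEC12 (adjusted p = 0.001), and by 1.46 without IEC12 A, the library with the lowest SPRY4 of its group (0.0013). AOC was lower than IEC12, with a difference of -1.59 ± 0.25 (adjusted p = 0.00018), 12.7-fold in mean FPKM, and differed from IEC4 by -3.33 ± 0.25 (3.71e-07).

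DUSP6 (chr5:93303058-93307510), a phosphatase that removes the activating phosphates from ERK, was the most abundant of the 10 genes in all 12 libraries. Its FPKM was 51.1, 51.8 and 63.7 in IEC2, 44.6, 41.6 and 42.7 in IEC4, 8.13, 12.6 and 17.5 in IEC12 and 9.48, 8.73 and 6.76 in AOC. Every IEC4 library lay just below IEC2, all IEC12 libraries lay far below IEC4, and AOC overlapped with IEC12. DUSP6 fell by 1.74 ± 0.23 from IEC4 to IEC12 (adjusted p = 0.000402), and by 1.47 without IEC12 A (0.000262). IEC12 was lower than IEC2, with a difference of -2.09 ± 0.23 (9.70e-05), and 83.0% of that log2 change fell in the second step. The first step, -0.36 ± 0.23, was not called (adjusted p = 0.245). AOC was lower than IEC4, with a difference of -2.25 ± 0.22 (adjusted p = 3.24e-06) and differed from IEC12 by -0.51 ± 0.22 (0.0644), a value that was -0.78 without IEC12 A (0.00247).

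The ratios between the inhibitors within each library do not depend on how libraries were scaled to each other. SPRY2 over SPRY4 was 2.38, 1.41 and 1.30 in IEC2, 0.421, 0.375 and 0.297 in IEC4, 2.02, 0.848 and 0.635 in IEC12 and 9.56, 4.86 and 14.7 in AOC. SPRY2 was thus above SPRY4 in every IEC2 and AOC library and below it in every IEC4 library, and IEC12 was divided, with IEC12 A alone above 1. DUSP6 over SPRY4 stayed between 3.43 and 6.35 in all 9 IEC libraries, whereas it was 33.6 to 46.9 in AOC, where SPRY4 had a mean of 0.224 FPKM and DUSP6 of 8.32. The ratios are given without a test.

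**Figure D3:**
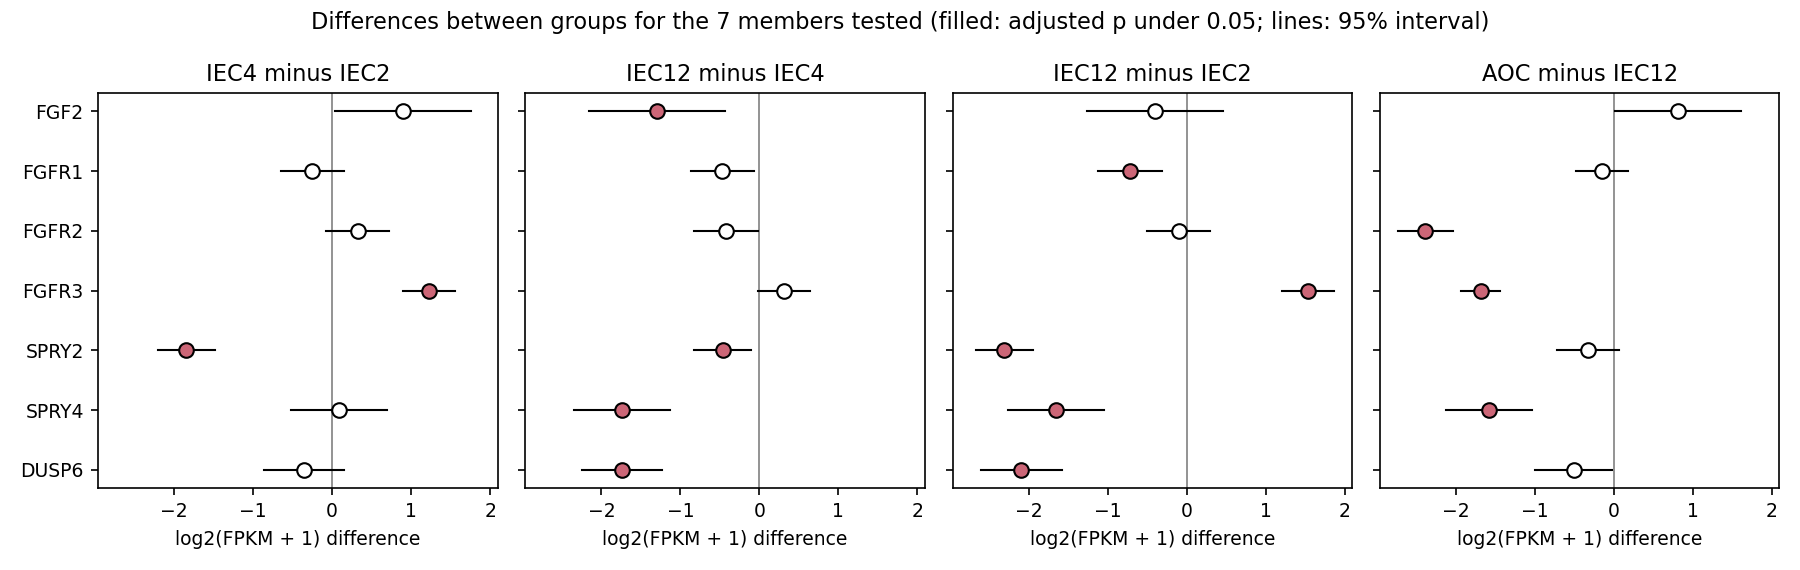
Differences in log2(FPKM + 1) for the 7 genes tested, for IEC4 minus IEC2, IEC12 minus IEC4, IEC12 minus IEC2 and AOC minus IEC12; circles are estimates, lines are 95% intervals and filled circles have an adjusted p under 0.05. SPRY2 is at -1.84 in the first step and -0.46 in the second, while SPRY4 is at 0.09 and -1.74 and DUSP6 at -0.36 and -1.74.

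Counted over the 7 members tested, IEC4 against IEC2 had 1 higher (FGFR3) and 1 lower (SPRY2), where 24.8% of all 10542 genes tested were called higher and 12.5% lower. IEC12 against IEC4 had 0 higher and 4 lower (FGF2, SPRY2, SPRY4 and DUSP6), beside 17.3% and 26.9% of all genes. Without IEC12 B or without IEC12 C, 2 were lower. IEC12 against IEC2 had 1 higher and 4 lower (FGFR1, SPRY2, SPRY4 and DUSP6), beside 24.2% and 19.3%. AOC against IEC12 had 0 higher and 3 lower (FGFR2, FGFR3 and SPRY4), beside 22.4% and 36.2% of 11053 genes, and without IEC12 A it had 1 higher (FGF2, 1.13, adjusted p = 0.0174) and 4 lower, DUSP6 being added. FGF2 was also called higher in AOC without IEC4 C (0.81, adjusted p = 0.0433). AOC against IEC4 had 0 higher and 6 lower, beside 22.1% and 47.0%, and AOC against IEC2 had 0 higher and 5 lower, beside 26.7% and 37.1%. With so large a share of all genes called in every comparison, nothing is read from these counts about the pathway as a whole.

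How the libraries were scaled to each other moved all genes together. As deposited, the median difference over all genes was 0.20 for IEC4 against IEC2, -0.15 for IEC12 against IEC4, 0.03 for IEC12 against IEC2 and -0.21, -0.45 and -0.20 for AOC against IEC12, IEC4 and IEC2. With median-of-ratios scaling these were -0.01, 0.04, 0.02, -0.01, -0.02 and -0.01, and the share of calls that were higher was 49.6%, 52.2%, 52.7%, 51.1%, 50.7% and 50.9% in place of 66.5%, 39.2%, 55.7%, 38.2%, 32.0% and 41.9%. With equal FPKM totals the medians were 0.14, -0.32, -0.18, -0.25, -0.65 and -0.45 and the shares were 60.6%, 25.6%, 36.5%, 36.1%, 24.1% and 31.1%. Of the members, under median-of-ratios scaling DUSP6 was also called lower in IEC4 than in IEC2 (adjusted p = 0.0323), FGFR3 higher in IEC12 than in IEC4 (0.0358) and FGF2 higher in AOC than in IEC12, SPRY2 was no longer called lower in IEC12 (0.274) or in AOC (0.118) than in IEC4, and FGFR1 was not tested. At equal totals FGFR2 (adjusted p = 0.0218) and FGFR1 were called lower in IEC12 than in IEC4. No called member changed direction under either scaling.

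Further down the pathway, 11 of 13 transcription factor genes found on a list of ERK-induced genes were tested. Between IEC4 and IEC12, 9 of the 11 fell and 0 rose, beside 26.9% and 17.3% of all genes, with a median of -1.18 (all genes, -0.15). The count was 8 and the median -0.91 without IEC12 A, and 8 to 10 across the scalings. An example is EGR2, with 41.8, 33.4 and 29.8 FPKM in IEC4 and 0.681, 1.70 and 3.39 in IEC12 (-3.72, adjusted p = 6.86e-05). MYC had 2.40, 9.64 and 17.5 in IEC4, 0.131 or less in IEC2 and 0.160 or less in IEC12. In the stage comparisons MYC passed the filter through IEC4 alone, so its calls there, which are in the counts, add nothing to its values. Between IEC2 and IEC4 the list was divided, 4 lower and 2 higher, beside 12.5% and 24.8% of all genes (4 and 1 of 10 tested without IEC4 C). The immediate early genes EGR1 (-1.94, adjusted p = 0.000149) and FOS (-1.80, 0.000143) fell, while EGR2 (2.26, 0.000874) rose. The other gene counted as higher was MYC, which was listed at 0 in IEC2 A and B. IEC12 against IEC2 had 9 lower and 0 higher, beside 19.3% and 24.2%, led by EGR1, which was at 16.8 to 21.5 FPKM in IEC2 and 0.137 to 0.491 in IEC12, and FOS, at 60.9 to 97.1 and 5.26 to 7.26. AOC against IEC12 had 3 higher and 4 lower (5 and 3 with median-of-ratios scaling), near the 22.4% and 36.2% of all genes, with MYC at 47.2 to 80.8 FPKM in AOC, and ETV5, an ETS factor that follows FGF signals in many tissues, at 0.575 to 0.809 in AOC against 20.2 to 22.6 in IEC12.

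The other feedback inhibitors were 14 genes found, of which 10 were tested. This list was drawn broadly: RASA1, NF1 and PEA15, named here only to define it, restrain RAS or ERK without being known as ERK-induced. From IEC2 to IEC4 1 rose, IL17RD, a membrane inhibitor of FGF receptors (1.40, adjusted p = 0.00593), and 1 fell, DUSP4, a nuclear relative of DUSP6, where 24.8% of all genes rose and 12.5% fell. Under either scaling, without IEC12 A and without IEC4 C, 2 fell. From IEC4 to IEC12 4 fell and 0 rose, beside 26.9% and 17.3% of all genes, with a median of -0.52 (all genes, -0.15), among them DUSP4 (-1.52, adjusted p = 0.00012) and DUSP5 (-1.25, 0.00865). Without IEC4 C 2 fell and the median was -0.11, the same as over all genes. DUSP4 had 44.3, 60.2 and 51.0 FPKM in IEC2, 28.2, 28.3 and 31.7 in IEC4, 10.9, 9.88 and 8.13 in IEC12 and 1.15, 1.84 and 1.96 in AOC, with no overlap between any groups. IEC12 against IEC2 had 3 lower, DUSP4, SPRED2 and LRIG3, and 0 higher, beside 19.3% and 24.2% of all genes (without IEC12 A, 2 and 1). AOC against IEC12 had 3 higher and 5 lower, beside 22.4% and 36.2%: PEA15 (1.52, adjusted p = 0.000266) and DUSP5 were higher, and IL17RD (-2.84) and LRIG3 (-2.46) were lower. SPRY1, the third Sprouty gene tested (named after its values were seen), lay between 4.26 and 6.91 FPKM in all 12 libraries.

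The adaptors and kinases between the receptors and ERK had medians of 0.07, -0.03 and -0.01 over 18 genes tested in the 3 stage comparisons (all genes, 0.20, -0.15 and 0.03), with members called in both directions. IEC4 against IEC2 had 1 higher and 0 lower, beside 24.8% and 12.5% of all genes, and the count was 3 and 0 without IEC12 A and 0 and 0 without IEC4 C. IEC12 against IEC4 had 2 higher and 4 lower, beside 17.3% and 26.9%, with 4 and 3 under median-of-ratios scaling, 0 and 4 at equal totals and 3 and 4 without IEC12 A. IEC12 against IEC2 had 3 higher and 2 lower, beside 24.2% and 19.3%, with 1 and 3 at equal totals and 2 and 1 without IEC12 A. AOC against IEC12 had 4 higher and 5 lower, near the 22.4% and 36.2% of all genes, with 6 and 4 under median-of-ratios scaling, 2 and 5 at equal totals and 3 and 7 without IEC12 A. GAB1, a docking protein for receptor tyrosine kinases, had 10.02 to 15.5 FPKM in IEC4 and fell to between 2.05 and 5.08 in IEC12 (-1.57, adjusted p = 0.00216). The kinase gene ARAF fell from 4.42 to 5.14 to between 0.0483 and 1.37 (-1.88, 0.00111), with its lowest value in IEC12 A. FRS2, the adaptor bound by the FGF receptors, was lower in AOC (2.78 to 3.09 FPKM) than in IEC12 (7.36 to 7.94), a difference of -1.13 (adjusted p = 0.000166).

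**Figure D4:**
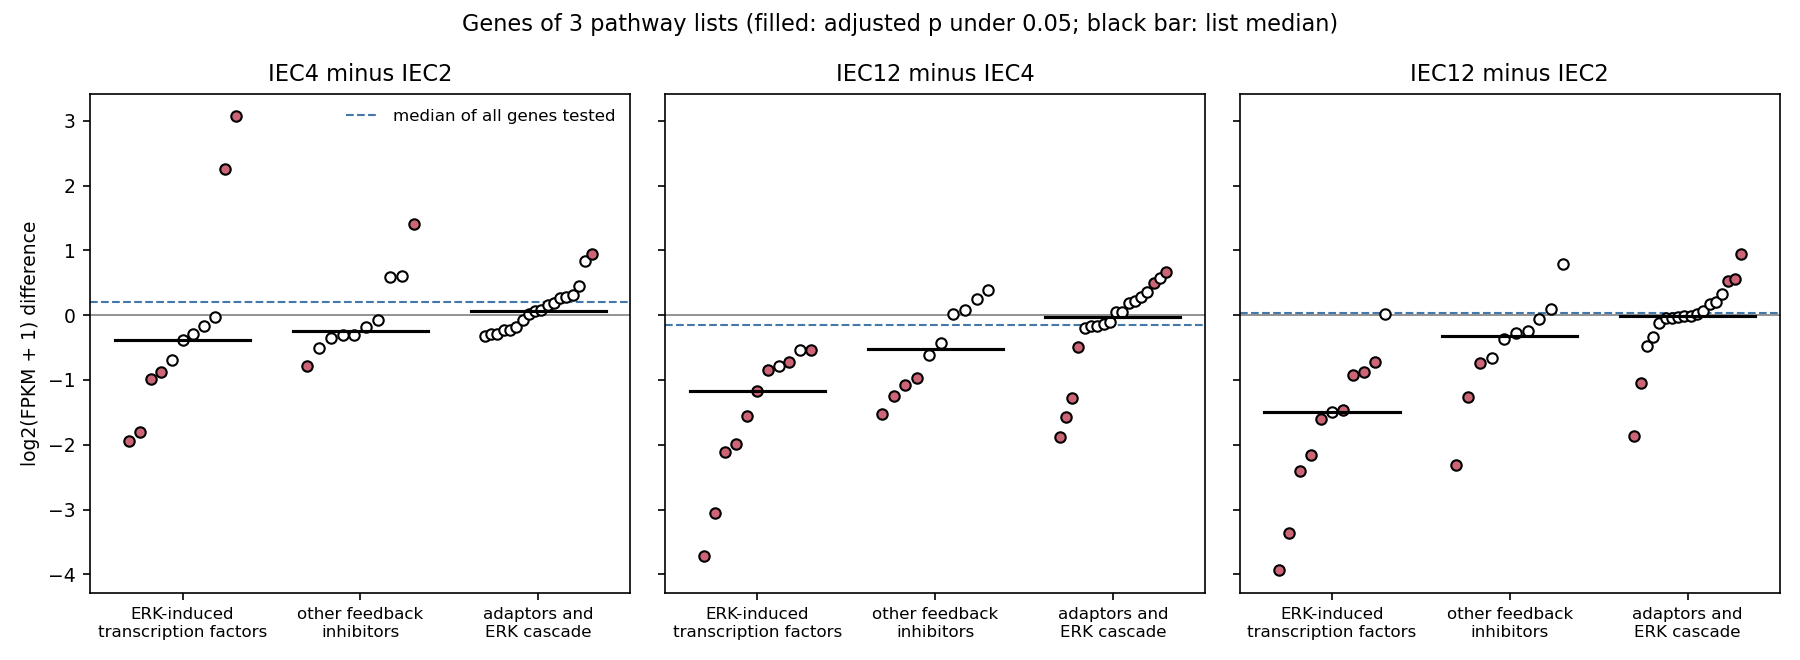
Differences in log2(FPKM + 1) between stages for the tested genes of 3 lists (ERK-induced transcription factors, other feedback inhibitors, adaptors and ERK cascade); each point is a gene, filled where the adjusted p is under 0.05, black bars are list medians and the dashed line is the median of all genes tested. In IEC12 minus IEC4, 9 of 11 transcription factor genes are filled and below 0, while the median of the adaptors and kinases is -0.03. Among the 9 is MYC, which passed the filter through IEC4 alone.

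By likeness of pattern over the 12 libraries, measured as the root mean square difference of log2(FPKM + 1) after centring each gene, the nearest of 9158 other named genes were GAB1 (0.174), PAK4 and FKBP8 for DUSP6, DCAKD (0.230), RASGEF1B and EEF2 for SPRY4, and EGF (0.213), CCNB1IP1 and NDUFA4L2 for SPRY2. For FGFR2 they were EPB41L5 (0.119), TNIK and ZNF365, and for FGFR3 YAP1 (0.128) and PWWP2A. FGF2 had DUSP5 (0.297), PXDC1 and LAMC1, and FGFR1 had ANKRD46 (0.0816), MORC2 and MTRR. The 7 members did not appear among each other's nearest 3. Genes that vary little are close to many others by this measure, so its values are not comparable between members.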

How the data were processed

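Per the labels, cDNA was amplified by Smart-Seq2 and 12 libraries were made. The authors deposited 1 table of FPKM per library, normalized by gene length and mapped fragments; the submitters' processing notes name Bowtie2 2.2.3, TopHat2 2.0.12, Cufflinks 2.2.1 and the build susScr11, and read counts were not used here. The depth is not known, so no counting error is given; the labels call the replicates biological. Symbols were found for 13998 of 19681 Ensembl IDs. limma 3.58.1 (R 4.3.3; lmFit, contrasts.fit and eBayes with a mean-variance trend) was run on log2(FPKM + 1) for genes with at least 1 FPKM in 3 or more libraries, over the 9 IEC libraries for stage comparisons and all 12 for AOC, with Benjamini-Hochberg adjustment. The fit was tested on simulated data. Shares, ratios and figures used Python 3.11.15. Same-lettered libraries were not treated as pairs. The members and lists were chosen with earlier results of these data known. All members are named; from each of 7 lists (87 of 105 genes found), the 2 genes with the largest called change over 1 log2 unit per direction could be named, and any other is marked. Alternative fits were another pseudocount (0.1), no filter, 2 scalings, each library left out, a replicate block, the groups compared alone and a variance not tied to expression. Stricter limits on the main fit were an absolute log2 change over 1 and the study's own limits. The undifferentiated iPS cells and the sorted day 12 cells of the study were not analysed here, and 1 gene near FGFR3 in pattern is not reported here.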

Additional observations from a re-analysis of the deposited data

How the results depend on the processing

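There were 25 differences called among the 7 members in the 6 comparisons. In every alternative fit that tested the gene, 22 kept a limma adjusted p under 0.05, and 0 changed direction. The 3 that did not were FGF2 and SPRY2 in IEC12 against IEC4 and SPRY2 in AOC against IEC4. Of 17 not called, 10 stayed so throughout. In 2 cases a difference that was called in neither fit changed sign. FGFR1 failed the filter in 5 alternatives of the stage comparisons and has no value there. In the AOC comparisons it had a value in 14 alternatives, where FGFR2 had 19. Stricter limits on the main fit are separate from these counts. Requiring an absolute log2 change over 1 as well removed FGFR1 in IEC12 against IEC2 (-0.72) and in AOC against IEC4 (-0.62) and IEC2 (-0.87). It also removed SPRY2 in IEC12 against IEC4 (-0.46) and in AOC against IEC4 (-0.79). Under the study's own limits (p and adjusted p under 0.001, log2 change over 3) the members called were 0 for IEC4 against IEC2, IEC12 against IEC4, IEC12 against IEC2 and AOC against IEC12, and 1, SPRY4, for AOC against IEC4 and for AOC against IEC2. The study set these limits for iPS cells against AOC. Here they were put on log2(FPKM + 1) differences, where genes as low as FGFR2 and FGFR3 cannot reach 3. Leaving out each library in turn gave 2 to 4 members for IEC12 against IEC4, where 4 were called, and 3 to 5 for AOC against IEC12, where 3 were called.

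Replicate letters did not pair the libraries in a uniform way: the mean correlation of same-lettered deviations ran from -0.27 to 0.16 over the 6 comparisons. The number of libraries that matched best with their own letter was 5 in AOC against IEC4, 4 in IEC12 against IEC2 and 1 or 0 in the others. A fit with the letter as a replicate block called 2, 4, 5, 3, 6 and 5 members in the 6 comparisons, the same numbers as without the block, and no member's call changed.

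The 7 pathway lists were also recounted under scalings and without IEC12 A or IEC4 C, alternatives chosen after seeing the data. Depth limits the genes under 1 FPKM most: FGF8, FGF19 and FGFR4 were not tested, and for FGFR1 and FGFR3 the pseudocount sets the size of the difference. With a pseudocount of 0.1, FGFR3 was also called lower in AOC than in IEC2 (adjusted p = 0.0115). Without the filter all 10 members were tested. Then 8 were lower in AOC than in IEC4, FGF19 and FGFR4 being added, beside 6151 of 18889 genes. In AOC against IEC12 4 were lower, FGFR4 being added, beside 4346 of 18889. FGF19 took the place of FGF2 in IEC12 against IEC4, where 2967 of 18415 genes were lower. Both added genes were under 1 FPKM everywhere and listed at 0 in AOC, and nothing is read from these counts. IEC12 A, the library with the lowest estimated depth and most mitochondrial RNA, had the lowest FGFR1, SPRY4 and DUSP6 of its group. The part of depth or RNA quality in these values was not tested.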

Other observations

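Heparan sulphate, which FGFs need to bind their receptors, is carried by cell surface and matrix proteoglycans. Of 23 genes listed for these proteoglycans and their enzymes, 19 were found and 12 were tested in the IEC libraries. IEC4 against IEC2 had 5 higher and 3 lower, beside 24.8% and 12.5% of all genes, among them the glypican gene GPC4 (1.85, limma adjusted p = 0.00133) and SULF2, which encodes a sulphatase that trims heparan sulphate (1.44, 0.000681). GPC6, another glypican, was lower (-1.13, adjusted p = 0.00131). IEC12 against IEC4 had 0 higher and 4 lower, beside 17.3% and 26.9%, led by SDC2, a syndecan, with 15.8 to 26.4 FPKM in IEC4 and 5.26 to 5.65 in IEC12 (-1.72, 0.00014). IEC12 against IEC2 had 2 higher and 5 lower, beside 24.2% and 19.3%. AOC against IEC12 had 3 higher and 8 lower of 13 tested, beside 22.4% and 36.2%, and nothing is read from these counts about the list as a whole: GPC3 was listed at 0 in all AOC libraries against 20.3 to 20.5 FPKM in IEC12, SULF1 was at 0.0274 or less against 11.2 to 12.7, and EXT1, a polymerase of the heparan sulphate chain, was higher (1.64, adjusted p = 0.000106).

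Membrane partners of the receptors are described by their values. Of 12 co-receptors, carriers and decoys listed, 9 were found, 3 were tested across the stages and 4 with AOC. The counts were 0 higher and 1 lower for IEC4 against IEC2, beside 24.8% and 12.5% of all genes. They were 2 and 0 for IEC12 against IEC4, beside 17.3% and 26.9%, and 1 and 0 for IEC12 against IEC2, beside 24.2% and 19.3%. For AOC against IEC12 they were 2 and 2, beside 22.4% and 36.2%. Without IEC12 A, where FLRT1 was not tested, the last 3 were 1 and 0, 0 and 0 and 2 and 1. At equal totals IEC12 against IEC4 had 1 and 0. FLRT1 and FLRT2 passed the filter through a single group, IEC12 and AOC, so their calls add nothing to their values. FLRT1, a leucine-rich repeat protein that binds FGF receptors, had 0.266, 0.522 and 0.898 FPKM in IEC4 and 2.07, 4.56 and 4.64 in IEC12 and was listed at 0 in AOC. Its relative FLRT2 was at 4.32, 5.24 and 5.65 in AOC and at 0.138 or less in all IEC libraries. CDH2 (N-cadherin), which can hold FGFR1 at the membrane, was at 9.51 to 24.8 FPKM in the IEC libraries and at 0.0165 or 0 in AOC. FGF14, which is homologous to FGFs but stays inside the cell, was tested with FGF12 from a list of 4, and had 26.3 to 43.3 FPKM at IEC2, against 9.32 to 14.0 at IEC4 and 12.3 to 14.5 at IEC12, and was listed at 0 in AOC. IEC4 against IEC2 had 1 of these homologous factors higher and 1 lower, IEC12 against IEC4 had 0 called of 2 by limma (1 lower at equal totals), IEC12 against IEC2 had 1 lower and AOC against IEC12 had 2 lower. The shares of all genes are those given above for the same comparisons, and nothing is read from the counts of either list.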
